A study of Mus musculus with 2 samples.

Results

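Amino acids cross membranes through carriers encoded by several solute carrier (Slc) families, and 7 of these families (Slc1, Slc3, Slc6, Slc7, Slc36, Slc38 and Slc43) were followed in mouse breast tumour tissue. Members were the genes of these families whose symbol ends in the member's number and whose counts in both libraries together came to at least 20. Of 61 symbols 39 met that minimum, among 18687 genes of the whole table that did. Slc6a20a and Slc6a20b, whose symbols end in a letter, were not taken, and both had fewer counts than the minimum. In the first group a PD-1 inhibitor was injected intraperitoneally (the PD-1 library), and in the second group mice received this injection together with acupuncture (the acupuncture library). Both groups thus received the PD-1 inhibitor, and neither was an untreated control. Each group is a single messenger RNA library, and the labels name no strain, age, tumour line or number of animals behind a library. With 1 library per group no difference has a replicate check, no p-value was computed, and all values describe these 2 libraries. In bulk tissue, fewer cells of a type and less RNA per cell cannot be told apart.

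Carriers differ in what they move and in what drives them. Slc1 carriers take up glutamate or exchange small neutral amino acids. Slc3 proteins are heavy chains that bring Slc7 light chains to the cell surface, and the light chains do the exchange. Other Slc7 carriers, among them Slc7a1, Slc7a2 and Slc7a3, take up cationic amino acids without a heavy chain. Slc6 carriers use sodium and chloride to move neurotransmitters, taurine, creatine and neutral amino acids, Slc36 carriers couple amino acids to protons, Slc38 carriers include the main sodium-driven glutamine importers, and Slc43 holds facilitated carriers of large neutral amino acids. Tumour cells and activated immune cells both depend on such uptake for protein synthesis, for glutathione and for signalling through mTORC1, the kinase complex that senses amino acids.

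Transcripts of these carriers took 0.169% of all counts in the PD-1 library and 0.186% in the acupuncture library. In counts per 1000000 of the scaled library (CPM), the 39 members summed to 1748 and 1798, so the acupuncture library stood at 1.03 times the other (95% counting interval 1.02 to 1.04). A member counted as higher or lower when its CPM ratio, acupuncture library over PD-1 library, was at least 2-fold away from 1 and its exact 95% interval did not hold 1. By that rule 7 of 39 members (17.9%) were higher and 1 (2.56%) was lower, against 9.21% higher and 4.9% lower among all 18687 genes. The 7 were Slc36a2, Slc1a3, Slc7a10, Slc1a2, Slc6a19, Slc38a3 and Slc38a4, and the 1 was Slc7a2. The median log2 ratio of the members was 0.06, and that of all genes 0.0003. With epithelial markers scaled to a median log2 ratio of 0, the median log2 ratio of all genes rose by 0.38. There 9 members (23.1%) were higher and 0 lower, against 15% higher and 2.55% lower among all genes. Under that scaling 7 members that stood below 1 stood above it (Slc3a2, Slc6a6, Slc6a8, Slc6a17, Slc7a4, Slc36a1 and Slc38a10), so the side of 1 on which these abundant or even genes lie depends on the scaling.

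Differences past 2-fold were mostly in genes of low level. Of the 25 members with an arithmetic mean of at least 10 CPM over both libraries, a limit chosen after the values were seen, 2 were higher (Slc36a2 and Slc1a3, both under 10 CPM in the PD-1 library) and 0 lower, and their ratios ran from 0.555 to 7.66. Of the 14 members below it, 5 were higher and 1 lower. Among all genes 2.51% were higher and 1.51% lower above that level, against 17.6% and 9.13% below it. In CPM not divided by exon length, the 4 highest members in both libraries were Slc38a2, Slc38a10, Slc3a2 and Slc6a6, and each lay within a factor of 1.22 of equality. With the next member in each library (Slc43a2 without acupuncture, Slc1a5 with it) they held 55.0% and 55.7% of the members' counts.

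**Figure D1:**
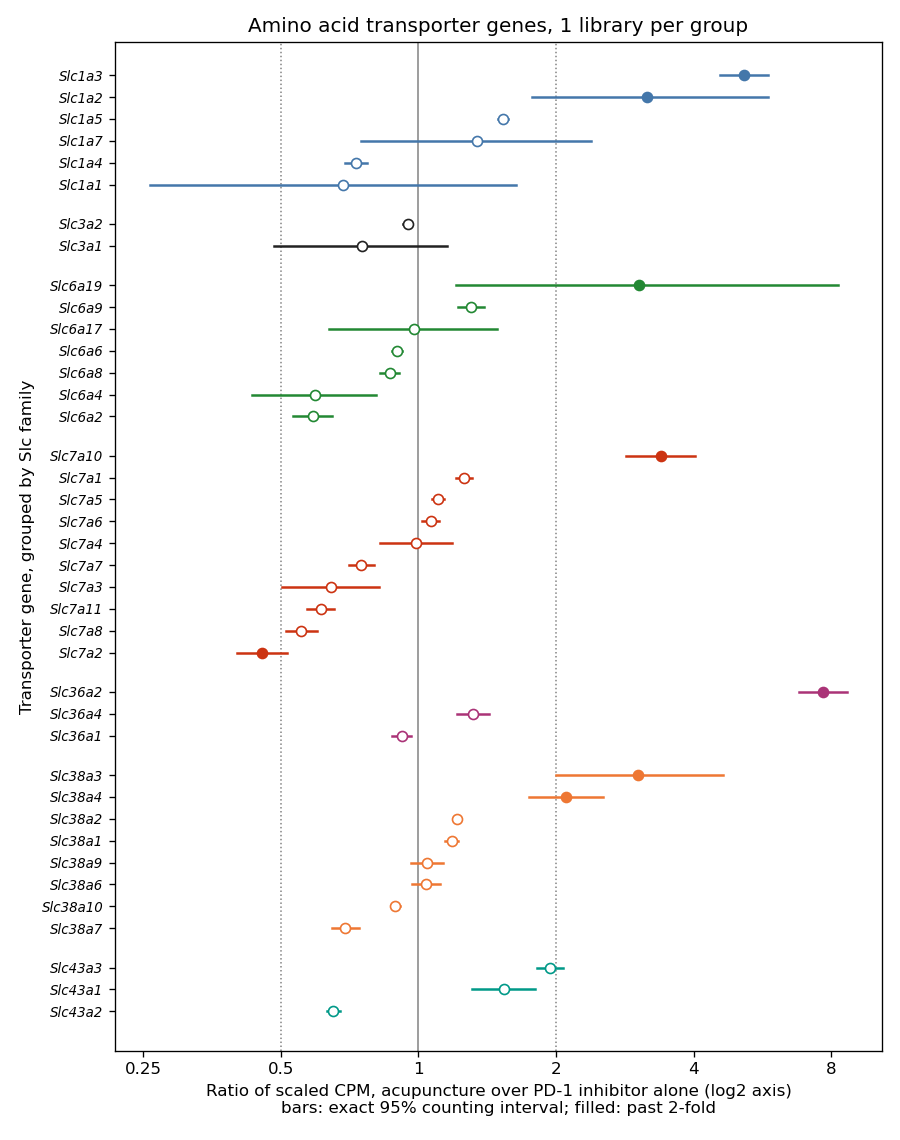
Ratio of scaled CPM for each of the 39 members, acupuncture library over PD-1 library, on a log2 axis, grouped by Slc family; points are single ratios, bars the exact 95% counting interval, filled points the members past 2-fold, and dotted lines mark 0.5 and 2. The 7 higher members run from 2.10 for Slc38a4 to 7.66 for Slc36a2, and Slc7a2 is the lower one at 0.455.

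**Figure D2:**
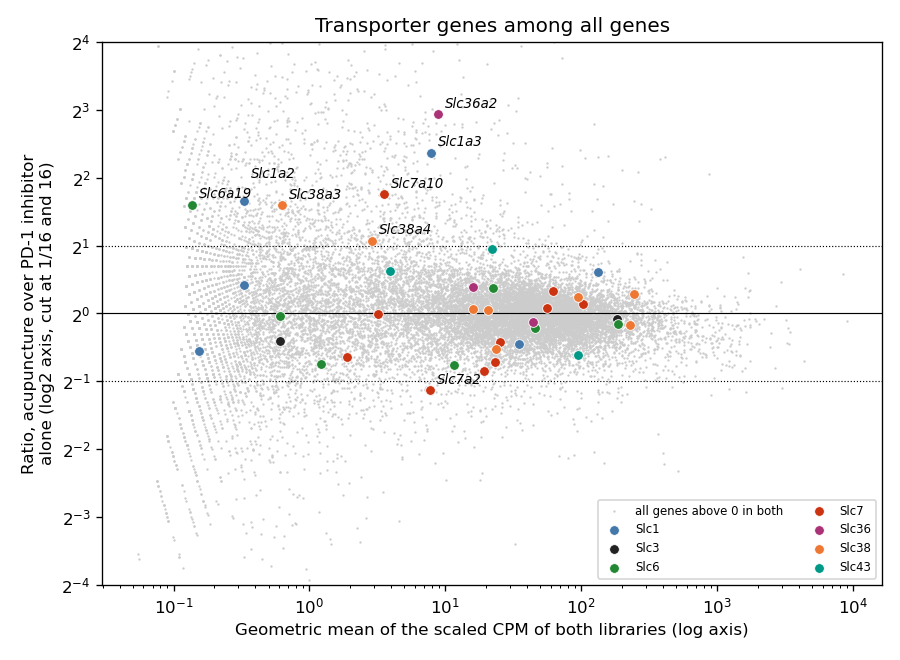
Ratio (log2 axis) against the geometric mean of the scaled CPM of both libraries (log axis), with the members coloured by family over all genes in grey that had counts in both libraries. No member above 10 CPM on this axis lies past 2-fold, the farthest being Slc43a3 at 1.94 and Slc7a8 at 0.555, and Slc36a2 and Slc1a3 stand highest at 7.66 and 5.16 just below that level.

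The widest difference was in Slc36, the proton-coupled carriers. Slc36a2, a carrier of glycine, proline and alanine known as a surface marker of brown and beige fat cells, had 327 counts (3.20 CPM) in the PD-1 library and 1544 (24.5 CPM) with acupuncture. It was 7.66-fold higher (6.79 to 8.66), with 98.7% of all genes at or below its log2 ratio. The lysosomal carrier Slc36a1 and the related Slc36a4 differed far less. Slc36a1 had 4700 and 2662 counts (46.0 and 42.3 CPM, 0.919 times, 0.876 to 0.964), and Slc36a4 had 1421 and 1153 (13.9 and 18.3 CPM, 1.32 times, 1.22 to 1.42). The family sum had a ratio of 1.35 (1.30 to 1.40), a total in which Slc36a2 made up 327 of 6448 counts without acupuncture and 1544 of 5359 with it.

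Fat markers were higher in the same library as Slc36a2. Of 12 adipocyte markers 11 were higher and 0 lower, and they summed to 599.6 CPM in the PD-1 library and 2090 with acupuncture, with none at 0 counts in either. Of 7 brown adipocyte markers 6 were higher, summing to 25.7 and 64.0 CPM. The seventh, the deiodinase gene Dio2, makes up most of the first sum and lay on the other side of 1, at 23.9 and 15.96 CPM (2444 and 1004 counts, 0.667 times). Among those higher, the uncoupling protein gene Ucp1 had 5 and 1251 counts, and Elovl3, a fatty acid elongase of brown fat, was at 0 in the PD-1 library and at 0.636 CPM in the acupuncture library. Skeletal muscle markers were higher in 14 of 14, at 252 and 2372 CPM in sum. Their part in the Slc36a2 difference, or in that of any other carrier, was not tested.

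In Slc1 both the glutamate carriers and the neutral exchangers summed to more in the acupuncture library, 4.602 times (4.12 to 5.15) and 1.31 times (1.28 to 1.34), and each kind held a gene on either side of 1. Slc1a3, the glutamate and aspartate carrier GLAST, best known from astrocytes, had 355 counts (3.48 CPM) without and 1128 (17.9 CPM) with acupuncture, 5.16-fold higher (4.57 to 5.83). These were most of the 422 and 1197 counts that the glutamate carriers held in sum. Slc1a2, the glutamate carrier GLT-1, had only 19 and 37 counts (0.186 and 0.588 CPM), 3.16-fold higher (1.77 to 5.82). The remaining glutamate carriers were near the limit of measurement. Slc1a1, the neuronal and epithelial carrier EAAC1, had 19 and 8 counts, a ratio of 0.683 whose interval of 0.259 to 1.63 held 1, and 31.9% of its exon length is shared with the opposite-strand gene 4430402I18Rik, which had 1243 and 836 counts. Slc1a7, a carrier described in retina, had 29 and 24 counts at a ratio of 1.34 (0.748 to 2.39). No difference was therefore detectable at this depth for Slc1a1 and Slc1a7.

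The abundant Slc1 genes were the exchangers of neutral amino acids. Slc1a5, ASCT2, a glutamine exchanger widely studied in tumours, had 10992 and 10372 counts, or 108 and 165 CPM. Its ratio was 1.53 (1.49 to 1.57). Its close relative Slc1a4, ASCT1, an exchanger of serine and alanine, lay on the other side of 1 with 4180 and 1884 counts (40.9 and 29.9 CPM, 0.731 times, 0.692 to 0.772). Per kilobase of exon, Slc1a5 was at 25.8 and 39.5 CPM and Slc1a4 at 10.4 and 7.63, so the order of this pair was the same in both libraries and the gap wider with acupuncture. The whole family summed to 153 and 214 CPM, 1.40 times (1.37 to 1.43), and Slc1 took 8.74% of the members' counts without and 11.9% with acupuncture.

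Heavy chains were close to even. Slc3a2, the CD98 heavy chain of the large neutral, cationic and cystine exchangers, had 19142 counts (188 CPM) in the PD-1 library and 11189 (178 CPM) with acupuncture, 0.948 times (0.926 to 0.971). Scaling by total counts turned the Slc3 sum, which is nearly all Slc3a2, from a log2 ratio of -0.08 to 0.02. Slc3a1, the heavy chain of the renal and intestinal cystine carrier, had 71 and 33 counts at 0.754 times (0.483 to 1.16). Over 26.5% of its exon length Slc3a1 is shared with the opposite-strand gene Prepl, which had 3886 and 2495 counts, and the strand setting of the counting is not given in the sources used here.

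Light chains that pair with Slc3a2 differed in makeup more than in total. The 6 members of this kind summed to 239 and 227 CPM, 0.950 times (0.931 to 0.970). Slc7a5, LAT1, which exchanges glutamine for leucine and other large neutral amino acids, had 10010 and 6822 counts (98.0 and 108 CPM), a ratio of 1.11 (1.07 to 1.14). Slc7a6, y+LAT2, an exchanger of cationic for neutral amino acids, had 5568 and 3647 counts (54.5 and 58.0 CPM), a ratio of 1.06 (1.02 to 1.11). The other 4 light chains were further from even, 3 of them lower and 1 higher.

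Slc7a8, LAT2, the second light chain of the L system, had 2639 and 903 counts (25.9 and 14.3 CPM), 1.80-fold lower (1.67 to 1.95) and thus short of 2-fold. Slc7a7, y+LAT1, which macrophages and epithelia use to export arginine, had 2966 and 1372 counts (29.1 and 21.8 CPM), 1.33-fold lower (1.25 to 1.42). Over 7% of its exon length Slc7a7 is shared with the opposite-strand gene Oxa1l, which had 7886 and 4689 counts. The part of Oxa1l reads in the Slc7a7 count was not tested. Slc7a10, Asc-1, a carrier of small neutral amino acids known as a surface marker of white fat cells, went the other way with 196 and 409 counts (1.92 and 6.50 CPM), 3.39-fold higher (2.85 to 4.04). The adipocyte markers given above, 11 of 12 higher, were higher in that library too. Its exons are shared over 17.9% with the opposite-strand gene Lrp3, which had 306 and 405 counts and was 2.15-fold higher (1.85 to 2.50), and the part of these reads in the Slc7a10 count was not tested.

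Per kilobase of exon, Slc3a2 stood at 53.1 CPM and the 6 light chains together at 55.3 in the PD-1 library, against 50.4 and 55.8 with acupuncture. Slc7a5 made up 47.8% of the light chain level without and 52.4% with acupuncture, and Slc7a6 21.6% and 22.7%. Slc7a8 went from 9.33% to 5.14%, Slc7a7 from 15.8% to 11.8%, Slc7a11 from 3.84% to 2.33% and Slc7a10 from 1.64% to 5.52%. The order of Slc7a5, Slc7a6 and Slc7a7 was the same in both libraries, whereas Slc7a10 was lowest without acupuncture and above Slc7a8 and Slc7a11 with it. Exon lengths were taken over all annotated transcripts, so a gene with long rarely used exons is placed too low.

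**Figure D3:**
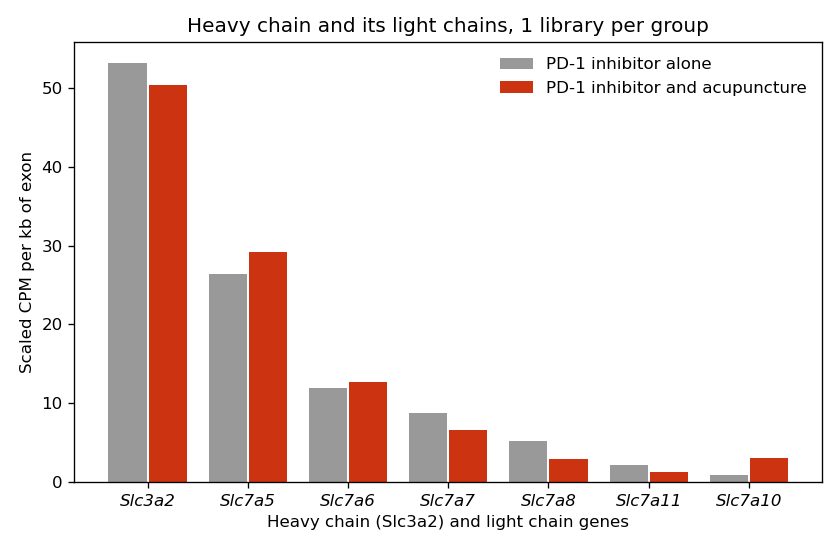
Scaled CPM per kilobase of exon (linear axis from 0) of the heavy chain gene Slc3a2 and its 6 light chain genes, with grey bars for PD-1 inhibitor alone and red bars for PD-1 inhibitor and acupuncture, 1 library each and so without error bars. Slc3a2 and Slc7a5 are the tallest in both libraries, Slc7a8 is lower with acupuncture (5.17 against 2.87) and Slc7a10 higher (0.909 against 3.08).

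Slc7a11, xCT, imports cystine in exchange for glutamate and so feeds glutathione synthesis. It had 3021 counts (29.6 CPM) in the PD-1 library and 1139 (18.1 CPM) with acupuncture, 1.64-fold lower (1.53 to 1.75). Transcription of several carriers is raised by ATF4, the factor of the amino acid stress response, through the amino acid response element, and Slc7a11 is a textbook case. The element was searched as TGATGNAA on both strands in RefSeq promoter windows of 300 bases, from 250 before to 50 after a gene's start (GRCm38.p6, an older build than the one named for the counts). Of the 39 members 27 had a window, and 3 of these (11.1%) held the element, Slc7a11, Slc1a4 and Slc7a7, against 4.51% of 27025 genes with a window. All 3 were lower in the acupuncture library without reaching 2-fold, at 0.612, 0.731 and 0.750 times. Elements outside these windows were not searched, and the 12 members without a window could not be searched at all. Slc38a2, which cells raise when amino acids run short, was not among the 3 and stood at 1.22 times. Of all 39 members 19 lay below 1, and the part of ATF4 was not tested.

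The 3 windows are printed because they are the members that hold the element, each 5′ to 3′ on the gene's strand (the minus strand in all 3), with the matches in capitals. That of Slc7a11 lies at chr3:50443564-50443863 and holds the element in each orientation, starting 66 and 47 bases before the start site. That of Slc1a4, at chr11:20332664-20332963, holds it on the opposite strand from 4 bases before the start. For Slc7a7 the window at chr14:54417895-54418194 is shown, with matches from 141 bases and from 1 base before that start, and a second, overlapping window of the gene holds the latter match again. A match of letters is no binding site.
Slc7a11: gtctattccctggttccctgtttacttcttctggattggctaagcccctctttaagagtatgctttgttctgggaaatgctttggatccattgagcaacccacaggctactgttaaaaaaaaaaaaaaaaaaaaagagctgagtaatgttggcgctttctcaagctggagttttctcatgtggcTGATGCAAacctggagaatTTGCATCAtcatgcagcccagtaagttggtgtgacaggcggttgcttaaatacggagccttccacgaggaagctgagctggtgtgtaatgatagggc
Slc1a4: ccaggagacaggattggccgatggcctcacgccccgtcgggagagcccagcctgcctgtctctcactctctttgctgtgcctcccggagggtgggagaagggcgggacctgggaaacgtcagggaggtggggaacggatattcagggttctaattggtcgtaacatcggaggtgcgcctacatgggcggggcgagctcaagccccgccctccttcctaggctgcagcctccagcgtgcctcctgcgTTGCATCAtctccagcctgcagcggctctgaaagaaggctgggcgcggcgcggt
Slc7a7: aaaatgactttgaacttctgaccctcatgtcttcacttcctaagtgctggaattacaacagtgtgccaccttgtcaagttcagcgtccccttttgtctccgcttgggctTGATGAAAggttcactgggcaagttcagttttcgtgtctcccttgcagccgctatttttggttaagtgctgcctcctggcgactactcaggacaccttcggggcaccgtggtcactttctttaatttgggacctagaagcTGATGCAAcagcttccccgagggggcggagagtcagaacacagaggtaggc

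Among ATF4 targets themselves there was no common direction. Of 25 such genes 3 were higher and 2 lower, and the list had a median log2 ratio of 0.18. Chac1, which breaks down glutathione, was 2.51-fold higher (2.29 to 2.75) at 774 and 1197 counts, and Vldlr, a lipoprotein receptor, 2.74-fold higher (2.48 to 3.02), the third being the hormone gene Fgf21. Ddit4, an inhibitor of mTORC1 that hypoxia also induces, was 2.81-fold lower at 22209 and 4871 counts, and the secreted Stc2 2.90-fold lower. The serine synthesis enzyme Phgdh stood at 1.14 times (1.12 to 1.16) and the factor Cebpb at 0.621 times (0.606 to 0.637). Hypoxia markers were lower in 10 of 12, from 5644 to 2628 CPM in sum, in the same library as Ddit4 and Slc7a11, and the part of hypoxia was not tested. Of the 16 genes of cystine use and glutathione 2 were higher (Chac1 and Ggt6) and 0 lower, with a median of 0.31. Gpx4, the glutathione peroxidase that protects lipids, stood at 0.693 times (0.681 to 0.705) and Txnrd1, a thioredoxin reductase, at 1.21 times (1.19 to 1.24).

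Among cationic carriers, Slc7a2 was the single member past 2-fold in the lower direction. Slc7a2, CAT2, which supplies arginine to arginase and nitric oxide synthase in macrophages, had 1169 counts (11.5 CPM) in the PD-1 library and 328 (5.21 CPM) with acupuncture, 2.20-fold lower (1.94 to 2.49). With epithelial markers scaled to 0 it stood at 0.594 times and no longer passed. Slc7a1, CAT1, the general arginine importer, was at 5608 and 4352 counts (54.9 and 69.2 CPM), 1.26 times (1.21 to 1.31). Slc7a3, CAT3, had 242 and 96 counts, 1.55-fold lower (1.22 to 1.99). Slc7a4, listed with them by its place in the family and not by what it carries, had 326 and 199, even at 0.990 times (0.826 to 1.18). Over 13.3% of its exon length Slc7a4 is shared with the opposite-strand gene P2rx6, which had 185 and 183 counts. The part of these reads in the Slc7a4 count was not tested. The 4 genes Slc7a1, Slc7a2, Slc7a3 and Slc7a4 together came to 1.10 times (1.06 to 1.14), since Slc7a1 holds most of their counts.

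Enzymes that use arginine differed in the direction of Slc7a2. Arg1, arginase 1, had 32179 and 4289 counts and was 4.62-fold lower, and the inducible nitric oxide synthase Nos2 had 4320 and 1019 and was 2.61-fold lower. Macrophage markers, among which Arg1 is also listed, were lower in 3 of 12 (Spp1, Mertk and Arg1) and higher in 0, with none at 0. They went from 6520 to 3651 CPM in sum, of which Spp1 alone made up 4402 and 2054. Of the 12 ratios 10 lay below 1 and 2 above it, C1qb at 1.04 and Fcgr1 at 1.16 times. The part of macrophages was not tested. Of the 14 enzymes of tryptophan, arginine and other amino acids measured, 2 were higher and 3 lower, the third of them arginase 2, Arg2. Those higher were the tryptophan dioxygenase Ido1, 4.30-fold (3.61 to 5.16) at 173 and 459 counts, and the amino acid oxidase Il4i1, 3.30-fold (2.84 to 3.83). The polyamine enzyme Odc1 stood at 1.08 times (1.06 to 1.10).

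Slc38, the largest family by counts with 35.2% and 36.05% of the members' total, was close to even in sum at 1.05 times (1.04 to 1.07). System A carriers, which import glutamine and alanine with sodium, were all above 1. Slc38a2, SNAT2, the form that cells raise when amino acids run short, had 22507 and 16874 counts (220.5 and 268 CPM), 1.22 times (1.19 to 1.24). Slc38a1, SNAT1, had 8934 and 6507 counts (87.5 and 103 CPM), 1.18 times (1.14 to 1.22). Slc38a4, SNAT4, a carrier abundant in liver and muscle, had 203 and 263 (1.99 and 4.18 CPM), 2.10-fold higher (1.74 to 2.54), just past the 2-fold limit. Scaling by DESeq2 size factors left Slc38a4 past it as well.

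Slc38a3, SNAT3, the system N glutamine carrier of liver, kidney and brain, had 37 and 69 counts (0.362 and 1.10 CPM), 3.03-fold higher (2.001 to 4.64). The remaining 4 genes of Slc38 lay between. Slc38a10 had 24591 and 13497 counts (241 and 214.5 CPM, 0.890 times, 0.872 to 0.909), and the lysosomal glutamine exporter Slc38a7 had 2884 and 1230 (28.2 and 19.5 CPM, 0.692 times, 0.647 to 0.740). Slc38a9, the lysosomal arginine sensor that signals to mTORC1, had 1594 and 1027 counts at a ratio of 1.05 (0.966 to 1.13), and Slc38a6 had 2056 and 1319 at 1.04 (0.971 to 1.12). The intervals of Slc38a9 and Slc38a6 held 1.

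Of 36 genes of mTORC1 and its amino acid sensors 1 was higher and 1 lower, with a median log2 ratio of -0.11. Rragd, one of the small GTPases that carry the amino acid signal to mTORC1, was 6.98-fold higher (5.62 to 8.75) at 102 and 439 counts. Sesn3, a sestrin, was 2.25-fold lower at 5026 and 1376. The abundant Rheb, the GTPase that activates mTORC1, stood at 1.18 times and the inhibitor Deptor at 0.941 times. Of 9 genes around the starvation kinase GCN2 (Eif2ak4) 0 were higher and 0 lower, from 0.591 times for Ppp1r15a to 1.38 times for Eif2ak2.

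Among 14 enzymes of glutamine, glutamate and aspartate all ratios were above 1, from 1.01 to 3.51, but 1 was higher by the 2-fold rule. That gene was Aspa, which cleaves acetyl-aspartate, at 195 and 422 counts. Glutamine synthetase, Glul, had 15077 and 14279 counts and stood at 1.54 times (1.502 to 1.57), and Glud1, glutamate dehydrogenase, at 1.20 times (1.17 to 1.22). Of 15 genes of branched-chain amino acid breakdown 1 was higher (Dbt, a subunit of the branched-chain ketoacid dehydrogenase, at 2.001 times), and of 20 cytosolic tRNA synthetases 0 were higher and 0 lower, between 0.814 and 1.52 times. Amino acid carriers outside the 7 families, mostly mitochondrial and lysosomal, had 1 of 22 measured higher (Slc25a18, at 13 and 23 counts and named after its value was seen) and 0 lower. Among 6 partner proteins measured 0 passed 2-fold, and Bsg, basigin, a chaperone of carriers, was lowest at 0.536 times.

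Slc6 holds carriers with little in common but their mechanism. Slc6a6, the taurine carrier, had 20014 counts (196 CPM) without and 11082 (176 CPM) with acupuncture, 0.898 times (0.878 to 0.920). Slc6a8, the creatine carrier, had 4983 and 2660 (48.8 and 42.3 CPM, 0.866 times, 0.826 to 0.908), and the glycine carrier Slc6a9 had 2002 and 1608 (19.6 and 25.6 CPM, 1.30 times, 1.22 to 1.39). These 3 carriers were between the limits. For Slc6a9, 30.3% of the exon length is shared with opposite-strand genes, among them B4galt2 at 3556 and 1928 counts.

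Both monoamine carriers measured were lower to a like degree. Slc6a2, the noradrenaline carrier of sympathetic nerves, had 1536 and 557 counts (15.0 and 8.85 CPM), 1.70-fold lower (1.54 to 1.88). Slc6a4, the serotonin carrier of platelets and serotonergic neurons, had 161 and 59 counts, 1.68-fold lower (1.24 to 2.31). The 2 did not reach 2-fold. Markers of nerve and Schwann cells were higher in 4 of 11 and lower in 0, summing to 127 and 153.5 CPM, with Snap25 at 0 counts without acupuncture. Of 8 erythroid and platelet markers 3 were higher (Hbb-bs, Hbb-bt and Alas2) and 2 lower, and the lower ones were the platelet genes Ppbp (201 and 16 counts) and Pf4 (5050 and 883). What these markers contribute to either carrier was not tested.

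Neutral amino acid carriers of Slc6 were scarce. Slc6a19, the B0AT1 carrier of kidney and gut, had 8 and 15 counts, 3.04-fold higher (1.21 to 8.29). Its counts were the lowest of any member, and with the deeper library thinned to the depth of the other it fell below the minimum. Slc6a17, a carrier of synaptic vesicles, had 63 and 38 counts at 0.979 times (0.637 to 1.49).

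All 3 Slc43 genes lay between the limits, and they differed in direction. Slc43a2, LAT4, a facilitated carrier of large neutral amino acids, had 11908 counts (117 CPM) in the PD-1 library and 4781 (76.0 CPM) with acupuncture, 1.53-fold lower (1.48 to 1.59). Slc43a1, LAT3, had 324 and 307 (3.17 and 4.88 CPM), 1.54 times (1.31 to 1.80). Slc43a3 is named with the family but carries purine nucleobases, and it had 1630 and 1948 counts (15.97 and 31.0 CPM), 1.94 times (1.81 to 2.07). Its interval reached past 2, and by total counts it was 2.08-fold higher. In sum the family was at 0.824 times (0.800 to 0.848), which became a log2 ratio of 0.10 with epithelial markers at 0.

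The count minimum of 20 separated the scarce genes by few counts. Just inside were Slc6a19 with 23 and Slc1a1 with 27 combined counts, and just outside Slc6a7, the brain proline carrier, with 17 and Slc6a13, a carrier of the transmitter GABA, with 15. Of the 22 genes outside, 9 were at 0 in both libraries, including the light chain Slc7a9, which 0 counts place at no more than 3 counts per library. Slc36a3 had 13 and 1 counts, a ratio of 0.125 with a wide interval (0.00294 to 0.831), and with a count minimum of 1 it joined Slc7a2 as lower and Slc6a7, at 6 and 11 counts, joined the higher members. Slc6a14, a broad carrier reported in epithelial tumours, had 0 and 2 counts.

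Depth and tissue content differed between the libraries as a whole. Totals were 105728292 counts in the PD-1 library and 60752043 with acupuncture. Epithelial markers were present in both and summed to 5019 and 3468 CPM, with 4 of 24 lower (Krt5, Krt19, Cldn4 and Elf5) and 1 higher (Ap1m2) and with Elf5, a factor of luminal progenitors, at 0 in the acupuncture library. Markers of T cells were higher in 16 of 16, of B cells in 12 of 12 and of lymph node stroma and vessels in 9 of 10, at 36.9 and 211, 12.0 and 169, and 28.5 and 226 CPM in sum. Cr2, at 8 and 662 counts, is in both the B cell and the lymph node list. Lyve1 in the lymph node list stood at 1.18 times. Leukocyte markers shared by most blood cells were higher in 1 of 10 (Cd37), with 9 ratios above 1 and the sum at 1.26 times. Fibroblast markers were higher in 1 of 10 (Fap), with 8 ratios above 1 and the sum at 1.34 times. Neutrophil markers were lower in 8 of 10. Of 10 endothelial markers and of the 3 measured markers of barrier endothelium 1 each was lower (Cldn5 and the glucose carrier Slc2a1). Slc2a1 is also listed among the hypoxia markers. The other barrier markers measured, Abcb1a and Mfsd2a, stood at 0.814 and 1.70 times, and Slco1a4 and Slco1c1 were at 0 counts in both libraries. Proliferation genes were past 2-fold in 0 of 12, at a median log2 ratio of 0.17. These lists differ between the same 2 libraries as every carrier above, and their part in the carriers' ratios was not tested.

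**Figure D4:**
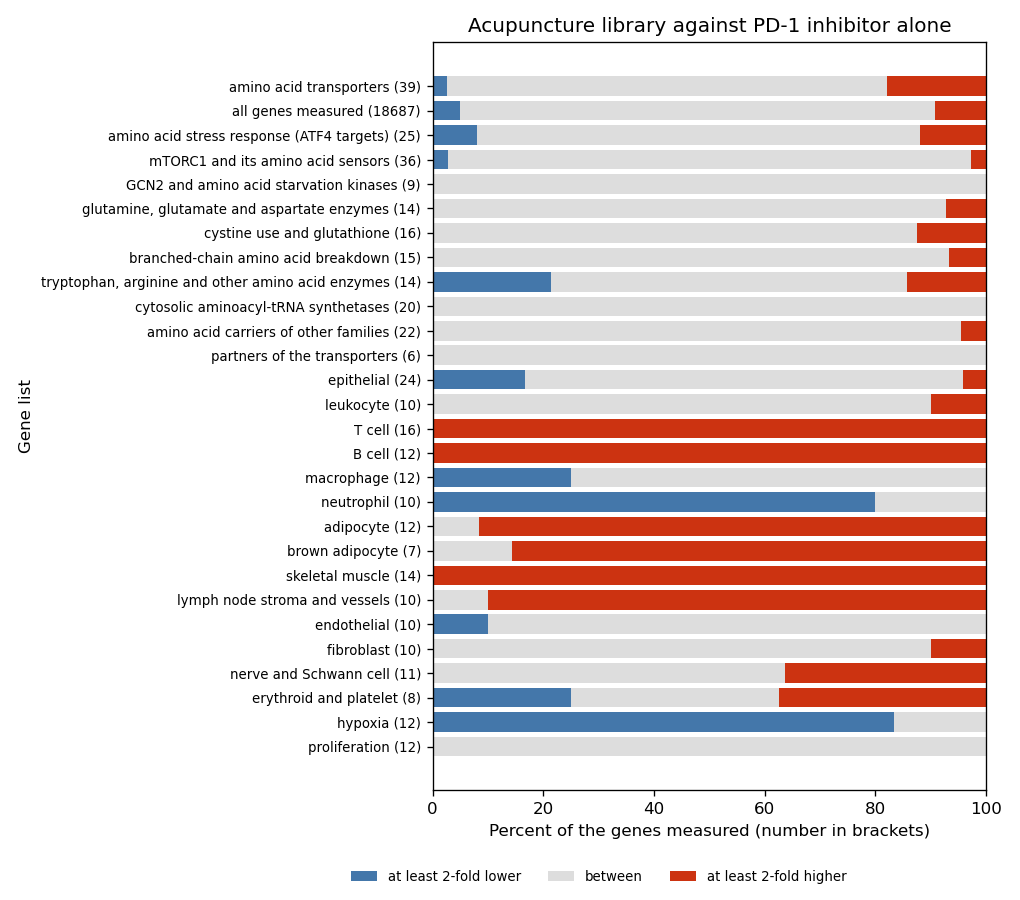
Percent of the measured genes of each list (number in brackets) that were at least 2-fold lower (blue), between (grey) or at least 2-fold higher (red) in the acupuncture library. The carriers, with 17.9% higher and 2.56% lower, lie mostly between, as do all genes (9.21% and 4.9%), whereas fat, muscle, lymphocyte and hypoxia lists lie almost wholly on a single side.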

How the data were processed

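The authors deposited a table of raw gene counts, whole numbers for 35602 symbols in each of the 2 libraries. The submitters' processing notes name the builds GRCm39 and mm39. No aligner, counter or strand option is given in the sources used here. Libraries were made with a SMARTer messenger RNA kit, per the labels' protocols.

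Library totals were scaled by TMM factors from edgeR 4.0.16 (R 4.3.3) over genes whose counts in both libraries sum to 20 or more, at 0.966 and 1.04. Ratios carry an exact Clopper-Pearson 95% interval from the split of the combined count. Log2 ratios carry a prior count of 2. Reads have no molecular identifiers, so intervals cover counting error only. Exon lengths (all 39 members matched by symbol) come from GENCODE M21 on GRCm38, and 12 members share exon bases with opposite-strand genes. The calculation was tested on simulated data.

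The members, roles and 27 gene lists were chosen with earlier results of these data known. All members are described. From lists, the 2 genes of most counts and the 2 most extreme in either direction with at least 100 combined counts could be named. Not all were, and for several lists only counts and sums are given. Genes named outside this rule, as the whole of a small count or as markers at 0, were chosen after their values were seen. Alternatives were other scalings (DESeq2 1.42.0 size factors among them), count minimums, fold limits and prior counts. Python 3.11.15 with scipy 1.17.1 was used.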

Additional observations from a re-analysis of the deposited data

How the results depend on the processing

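With 1 library per group no replicate could be left out, and no paired analysis was possible because there is 1 library per group. The number of higher members stayed between 5 and 10 over the scalings, count minimums, the 1.5-fold limit and the rule without the interval, and was 2 at a 4-fold limit. The share of all genes moved with these settings too. At the 1.5-fold limit 25.6% of members and 14.3% of all genes were higher, and at the 4-fold limit 5.13% and 3.63%. With a count minimum of 100 the shares were 14.3% and 6.92%. Lower members numbered 0 with epithelial markers at a median of 0 and at a 4-fold limit, where 2.55% and 1.4% of all genes were lower. With a count minimum of 1 they numbered 2 (3.85%, against 4.62% of all genes). At a 1.5-fold limit they numbered 7 (17.9%, against 10.3% of all genes). The members' median log2 ratio was 0.44 with epithelial markers at 0, where the median of all genes moved by 0.38, and -0.01 with a count minimum of 100. The summed families moved with the scaling alone. By total counts, where the median of all genes moved by 0.10, the log2 ratios were 0.59 for Slc1, 0.024 for Slc3, -0.045 for Slc6, 0.079 for Slc7, 0.53 for Slc36, 0.18 for Slc38 and -0.18 for Slc43, and without the 10 genes of most counts they were 0.59, 0.024, -0.045, 0.079, 0.53, 0.18 and -0.18. With epithelial markers at 0 they were 0.87, 0.31, 0.24, 0.36, 0.82, 0.46 and 0.10 in the same order. Slc38 was at 0.055 by DESeq2 size factors and 0.10 by upper quartile. No member past 2-fold changed direction under any scaling, thinning or prior count. The scalings and prior counts could not have turned any of them. The largest shift by a scaling was 0.38 in log2, and the smallest log2 ratio in size among these members was 1.06, of Slc38a4. Counts below about 30, as for Slc6a19 and Slc1a1, leave intervals several-fold wide.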
